A study of Homo sapiens with 12 samples.

Results

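The 6 genes SOX9, SOX4, SOX2, IRX3, IRX5 and IRX2 encode transcription factors tied to progenitor states and lineage plasticity. They were picked by symbol, and all 6 were found among the 60835 gene symbols of the deposited tables. When FOXA1 was knocked down, SOX9 was 19.5-fold, IRX5 11.2-fold and IRX3 8.10-fold higher in LNCaP cells, while SOX4 and IRX2 overlapped their controls and SOX2 was close to undetected. When TRIM28 was knocked down, SOX9 was 2.55-fold higher, and the ranges of IRX3, IRX5, IRX2 and SOX4 overlapped those of the control. The genes were chosen with such differences in view, so these values are a description and carry no test.

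The study measured polyadenylated RNA by RNA sequencing in 12 libraries of LNCaP, an established human prostate cancer line with luminal, androgen-responsive character. The 4 groups held 3 biological replicates each: cells with a control shRNA for the FOXA1 knockdown, cells with shRNA-FOXA1, cells with a second set of control shRNA for the TRIM28 knockdown, and cells with shRNA-TRIM28. All groups were the same line, spelled "LACAP cell" in the sample labels, and all carried batch label 1. The number of shRNA sequences per target and the time after delivery were not stated in the labels. Titles of the knockdown libraries read "SH control", so their groups were taken from the treatment labels.

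FOXA1 is a forkhead pioneer factor that opens chromatin for the androgen receptor in luminal prostate cells. TRIM28, also called KAP1, silences chromatin together with KRAB-type zinc finger repressors. SOX proteins bind DNA through an HMG box. SOX9 is known for cartilage, hair follicle and prostate bud development, SOX4 for epithelial and neural progenitors, and SOX2 for pluripotency and for the neuroendocrine switch of prostate tumours. Iroquois (IRX) proteins carry a homeodomain of the TALE class and pattern the nervous system, heart and limb. Their genes lie in clusters, with IRX3 and IRX5 in one and IRX2 in the other.

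In the deposited annotation on GRCh38 (hg38), SOX9 (ENSG00000125398) lies at chr17:72121020-72126416 on the plus strand and SOX4 (ENSG00000124766) at chr6:21593751-21598619 on the plus strand. SOX2 (ENSG00000181449) lies at chr3:181711925-181714436 on the plus strand. IRX3 (ENSG00000177508) lies at chr16:54283304-54286787 on the minus strand, and IRX5 (ENSG00000176842) at chr16:54930865-54934485 on the plus strand, 644077 bp away. IRX2 (ENSG00000170561) lies at chr5:2745845-2751677 on the minus strand.

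The longest stretch of coding sequence shared exactly by IRX3 and IRX5 is shown because reads from it cannot be assigned to one gene by sequence. It comes from the homeodomain region, in exon 2 of both genes (GENCODE release 29, GRCh38), at chr16:54285321-54285454 on the minus strand in IRX3 and chr16:54932633-54932766 on the plus strand in IRX5. Capitals mark the 62 bases that IRX2 also holds.
IRX3 and IRX5: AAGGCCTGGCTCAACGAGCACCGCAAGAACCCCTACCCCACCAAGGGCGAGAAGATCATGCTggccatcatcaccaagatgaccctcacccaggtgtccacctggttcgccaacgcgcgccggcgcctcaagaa
The run of 134 bases makes up 5.10% of the length the deposited FPKM values use for IRX3 and 5.59% for IRX5. How reads mapping to both genes were counted is not known from the labels, and its part in the values was not tested. The SOX members share far shorter runs. SOX9 and SOX4 have 24 bases in common, in the HMG box region, at chr17:72121713-72121736 and chr6:21594718-21594741, with capitals for the 15 bases also found in SOX2.
SOX9 and SOX4: cccatgaacGCCTTCATGGTGTGG

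Promoter windows of 250 bases before the RefSeq start site (GRCh38.p14) were found for 3 of the 6 members (SOX4, SOX2 and IRX2). They were searched on both strands for TGTTTAC and TGTTTGC, forms of the forkhead motif, for CCAAT and for TATAAA. The 3 windows printed are those of SOX4, the member whose level hardly moved, of IRX2, which shares its upstream region with the divergent transcript IRX2-DT, and of CRNDE, the gene that starts head to head with IRX5. The RefSeq start of CRNDE differs from that of the deposited annotation. Its window lies inside CRNDE as that annotation places it, at chr16:54845189-54929189. Capitals mark CCAAT or, on the other strand, ATTGG.
SOX4 (chr6:21593501-21593750, plus strand): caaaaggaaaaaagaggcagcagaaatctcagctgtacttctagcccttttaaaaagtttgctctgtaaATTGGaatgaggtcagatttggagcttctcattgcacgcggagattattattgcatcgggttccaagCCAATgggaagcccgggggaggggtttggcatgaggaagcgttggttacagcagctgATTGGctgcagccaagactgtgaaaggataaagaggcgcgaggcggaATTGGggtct
IRX2 (chr5:2751678-2751927, minus strand): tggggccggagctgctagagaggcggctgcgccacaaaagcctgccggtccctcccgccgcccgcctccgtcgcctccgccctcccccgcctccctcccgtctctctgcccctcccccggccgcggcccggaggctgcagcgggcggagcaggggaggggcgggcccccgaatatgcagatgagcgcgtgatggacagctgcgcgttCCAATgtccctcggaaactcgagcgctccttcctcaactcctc
CRNDE (chr16:54928887-54929136, minus strand): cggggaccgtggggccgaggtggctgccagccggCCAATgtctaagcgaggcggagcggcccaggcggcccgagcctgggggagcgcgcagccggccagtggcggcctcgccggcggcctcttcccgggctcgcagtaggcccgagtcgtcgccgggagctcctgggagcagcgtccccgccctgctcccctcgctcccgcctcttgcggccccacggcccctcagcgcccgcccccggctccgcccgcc
The SOX4 window held 4 CCAAT matches, a number reached by 0.874% of 35116 windows of this length, and 32.0% held at least 1. IRX2 and CRNDE held 1 each. Their GC content was 48.8% for SOX4, 72.8% for IRX2 and 80.0% for CRNDE, against a median of 58.0%. Among all windows, TGTTTAC was present in 2.98% and TGTTTGC in 3.23%, while TATAAA was present in 10.7%, and these 3 windows held no match to any of them. No motif searched overlapped another in them.

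Library totals ran from 12256092 to 15152890 counts, and 24650 to 27031 genes had a count. Levels of a gene across libraries are given as CPM, counts scaled to library size with TMM factors, and levels of different genes are compared only by the deposited FPKM, which divides by gene length. Intervals and floors below cover counting error only. FOXA1 was at 611, 594 and 541 CPM in its control libraries and at 170, 167 and 170 CPM in the knockdown, a log2 fold change of -1.78 (SE 0.05, edgeR quasi-likelihood adjusted p = 3.14e-22). TRIM28 was at 383, 408 and 401 CPM in its control and at 126, 111 and 54.2 CPM in the knockdown (log2 -2.01, SE 0.28, edgeR adjusted p = 0.00305). FOXA1 also fell in the TRIM28 knockdown, from 564, 609 and 559 CPM to 270, 244 and 394 CPM (log2 -0.90, SE 0.17, edgeR adjusted p = 0.00550). TRIM28 was slightly lower in the FOXA1 knockdown (log2 -0.19, SE 0.05, edgeR adjusted p = 0.00221). It stood at 87.2%, 89.5% and 86.8% of its control mean there.

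Within the TRIM28 knockdown, replicate 3 was unlike the other libraries. It differed from replicates 1 and 2 by a chi-square per degree of freedom of 25.8 and 23.3, against 3.12 to 6.31 for every other pair of replicates. Its 4 stromal markers summed to 163 CPM, where the other 11 libraries lay between 25.6 and 33.9 CPM, with COL1A1 at 124, DCN at 23.6 and LUM at 12.6 CPM. The luminal keratin KRT8 was at 88.0 CPM there and at 22.4 to 35.1 CPM in the rest. The 8 luminal markers summed to 3806 to 3904 CPM in the FOXA1 control and 2388 to 2470 CPM in the FOXA1 knockdown, and to 3631 to 3891 and 2293 to 2519 CPM in the TRIM28 pair. The 4 leukocyte markers summed to at most 0.591 CPM in any library. The 3 endothelial markers summed to 10.3 to 10.6 CPM in the TRIM28 knockdown, nearly all of it VWF, against 5.42 to 7.60 CPM in its controls, and to 4.26 to 7.09 CPM in the FOXA1 knockdown against 5.05 to 8.49 CPM. PECAM1 and CDH5 stayed at or below 0.855 CPM in every library. The part of these markers in the results was not tested. Log2 fold changes of the tested members in the TRIM28 knockdown are therefore given with and without replicate 3, as are most counts of called genes. Other values of that knockdown include replicate 3 unless stated.

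SOX9, a determinant of progenitor identity in several epithelia, was the member that differed most. Its control libraries for the FOXA1 knockdown held 4.43, 6.62 and 4.40 CPM (60, 97 and 57 counts), and the knockdown libraries held 102, 101 and 98.6 CPM (1507, 1329 and 1384 counts). All knockdown libraries were above all controls, and they lay closer together than the controls did in relative terms. The log2 fold change was 4.27 (SE 0.10, n = 3 against 3). Among 14953 genes tested, SOX9 had the 29th largest log2 fold change, and the 12th largest among the 10749 whose knockdown mean reached 5 CPM. In bulk RNA a change in the number of expressing cells and a change in RNA per cell cannot be told apart.

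In the TRIM28 pair SOX9 was at 4.67, 5.20 and 5.31 CPM in the controls and at 15.3, 14.1 and 9.33 CPM in the knockdown. The ranges did not overlap, and replicate 3 was the lowest of the knockdown libraries. The log2 fold change was 1.38 (SE 0.21), and 1.56 (SE 0.17) without replicate 3. The effect in the FOXA1 knockdown exceeded that in the TRIM28 knockdown by 2.91 on the log2 scale (SE 0.24), and by 2.73 (SE 0.19) without replicate 3.

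SOX4, the SOX family member that these cells expressed most, hardly moved. It was at 1003, 902 and 1025 CPM in the FOXA1 controls and at 945, 980 and 963 CPM in the knockdown, with the knockdown values inside the control range. The log2 fold change was -0.02 (SE 0.05). In the TRIM28 pair SOX4 was at 851, 1043 and 829 CPM in the controls and at 771, 844 and 1059 CPM in the knockdown. Replicate 3 of the knockdown was the highest of the 3, and the log2 fold change was 0.00 (SE 0.13), or -0.15 (SE 0.08) without it.

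SOX2 was close to undetected. Its 12 libraries held 5 counts in all (exact Poisson 95% interval 1.62 to 11.7), spread over 4 libraries with at most 2 counts each, and the other 8 libraries held 0. A count of 0 allows up to 3 counts, equal to 0.198 to 0.245 CPM at these depths. SOX2 was below the count filter in every comparison, and a difference between groups was not detectable at this depth. SOX2-OT, the long transcript on the same strand that spans SOX2, held 2 to 13 counts per library.

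IRX3, the highest per length of IRX3, IRX5 and IRX2 in every group, was at 12.9, 11.5 and 14.2 CPM in the FOXA1 controls. In the FOXA1 knockdown it was at 103, 103 and 107 CPM, far above the highest control. The log2 fold change was 3.02 (SE 0.08), the 91st largest of 14953. In the TRIM28 pair it was at 13.2, 12.6 and 9.15 CPM in the controls and at 20.0, 17.1 and 10.7 CPM in the knockdown, where replicates 1 and 2 exceeded the control range and replicate 3 fell inside it. The log2 fold change was 0.48 (SE 0.23), below the calling threshold. Without replicate 3 it was 0.69 (SE 0.15) and past the threshold.

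IRX5, the partner of IRX3 in its cluster, was at 1.92, 1.43 and 2.31 CPM in the FOXA1 controls (26, 21 and 30 counts). It was at 18.7, 21.3 and 23.3 CPM in the FOXA1 knockdown (276, 279 and 327 counts), with no overlap, a log2 fold change of 3.48 (SE 0.17) that ranked 57th of 14953. The TRIM28 controls were at 2.93, 2.75 and 2.37 CPM and the TRIM28 knockdown at 3.95, 3.34 and 2.57 CPM. Those ranges overlapped, with a log2 fold change of 0.31 (SE 0.27), or 0.46 (SE 0.29) without replicate 3.

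IRX2, from the other Iroquois cluster, stayed near its low starting level. It was at 3.62, 3.96 and 2.16 CPM in the FOXA1 controls and at 4.66, 4.27 and 3.13 CPM in the knockdown. The ranges overlapped, and the log2 fold change was 0.30 (SE 0.24). In the TRIM28 pair it was at 3.63, 3.86 and 2.53 CPM in the controls and at 6.07, 2.81 and 2.80 CPM in the knockdown, so that replicate 1 alone stood above the controls. The log2 fold change there was 0.24 (SE 0.34), or 0.42 (SE 0.29) without replicate 3.

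**Figure D1:**
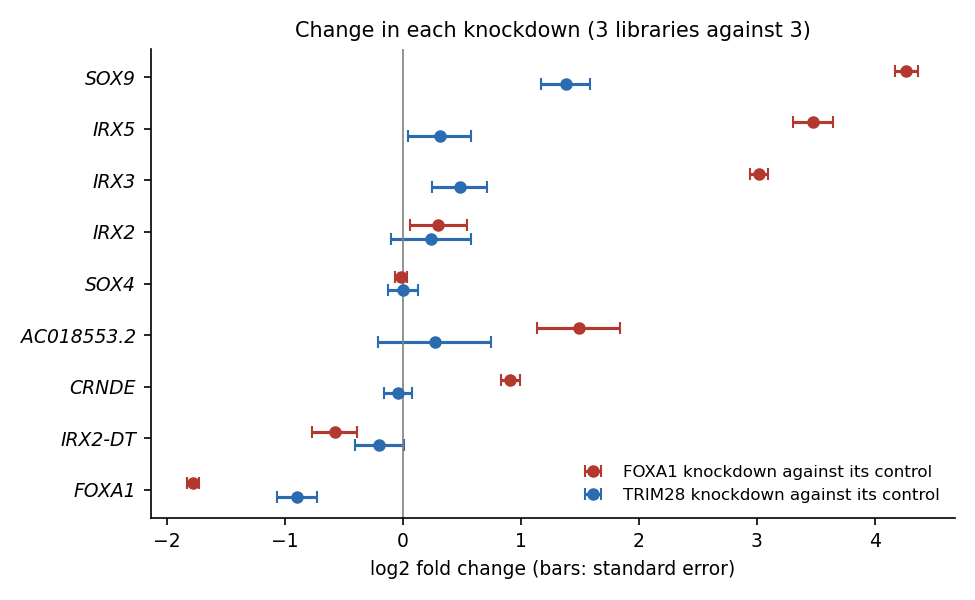
Log2 fold change (horizontal axis, bars are standard errors) of the 5 tested members, of 3 transcripts beside IRX genes and of FOXA1 in the FOXA1 knockdown (red) and the TRIM28 knockdown (blue), 3 libraries against 3. SOX9, IRX5 and IRX3 lie at 4.27, 3.48 and 3.02 in the FOXA1 knockdown and at 1.38, 0.31 and 0.48 in the TRIM28 knockdown, while SOX4 lies at -0.02 and 0.00.

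Of the 5 members above the count filter, 3 (SOX9, IRX3 and IRX5) were called higher and 0 lower in the FOXA1 knockdown at an edgeR quasi-likelihood adjusted p under 0.05, a threshold that 52.4% of all genes passed (26.1% higher and 26.3% lower). The median log2 fold change of the 5 was 3.02, against -0.017 over all genes tested. In the TRIM28 knockdown 1 of 5 (SOX9) was called higher, where 26.6% of genes were called and 13.3% were called higher. Without replicate 3, 2 of 5 were called, where 45.8% of genes were called and 21.9% were called higher. All 5 were also tested between the control groups, so none entered through a knockdown group alone. As the list was made with these values known, nothing is read from the counts.

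The change in the FOXA1 knockdown exceeded that in the TRIM28 knockdown by 3.18 for IRX5 (SE 0.30) and 2.55 for IRX3 (SE 0.26) on the log2 scale. The same difference was -0.01 for SOX4 (SE 0.15) and 0.07 for IRX2 (SE 0.44). Of the 5 members, 3 were called in this contrast over 12 libraries. Among 15921 genes 10.6% were called (5.98% higher and 4.59% lower in the FOXA1 knockdown). The members were chosen with these values known, so nothing is read from that count. Without replicate 3 of the TRIM28 knockdown the values were 3.04 for IRX5 and 2.35 for IRX3, and 22.5% of genes were called (13.2% higher and 9.28% lower).

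The control groups, which both carried control shRNA, gave the background of such comparisons. No gene of 14839 was called different between them (0% called by edgeR's quasi-likelihood test, 635 at an unadjusted p under 0.05, and 0 by DESeq2). The members differed by -0.02 for SOX9 (SE 0.20), -0.10 for SOX4 (SE 0.08), -0.13 for IRX3 (SE 0.15) and 0.05 for IRX2 (SE 0.26) on the log2 scale. IRX5 was 0.53 higher in the TRIM28 controls (SE 0.29), and its 3 values there lay above all 3 of the FOXA1 controls, without being called.

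In each knockdown mean FOXA1 RNA was lower, and the mean levels of SOX9, IRX3 and IRX5 were higher, than in its control. These differences were larger in the FOXA1 knockdown. Between the control groups the order was not opposite for SOX9 and IRX3. FOXA1 stood at 29.3%, 28.6% and 29.2% of its control mean in the FOXA1 knockdown, where SOX9 stood at 1978%, 1969% and 1914%. In the TRIM28 knockdown FOXA1 stood at 46.8%, 42.3% and 68.3%, and SOX9 at 302%, 279% and 184%. IRX3 stood at 172%, 147% and 92.3% and IRX5 at 147%, 125% and 95.7% in those same 3 libraries. Replicate 3 thus had the most FOXA1 RNA and the least SOX9, IRX3 and IRX5 of the 3, and it also had the least TRIM28, at 13.6% of control, and the raised stromal markers. Whether FOXA1, TRIM28 or the stromal signal goes with these levels cannot be told apart in 3 libraries.

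**Figure D2:**
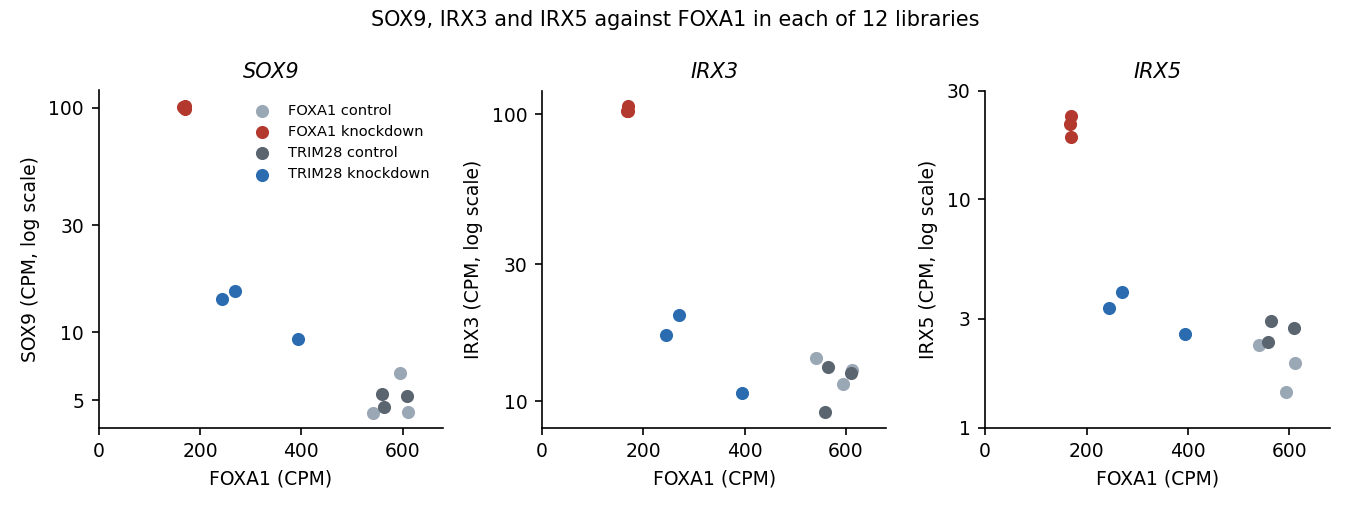
SOX9, IRX3 and IRX5 (vertical axes, CPM, log scale) against FOXA1 (horizontal axis, CPM) in 12 libraries, 1 point each, coloured by group. The FOXA1 knockdown libraries sit at 167 to 170 CPM of FOXA1 with SOX9 at 98.6 to 102 CPM, and the TRIM28 knockdown libraries sit at 244 to 394 CPM of FOXA1 with SOX9 at 9.33 to 15.3 CPM.

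Per length, SOX4 led in every group, at a mean of 195 FPKM in the FOXA1 controls, where it was the 216th highest of 15921 genes. IRX3 followed at 4.77 FPKM, then SOX9 at 1.27, IRX2 at 1.02 and IRX5 at 0.766 FPKM. The neighbours SOX9 and IRX2, and IRX2 and IRX5, overlapped in range there. In the FOXA1 knockdown the order was SOX4 (194 FPKM), IRX3 (39.0), SOX9 (25.1), IRX5 (8.63) and IRX2 (1.28 FPKM), and no 2 neighbours overlapped. IRX3 moved from position 8006 to 1541 among 15921 genes, SOX9 from 11486 to 2516 and IRX5 from 12676 to 6091.

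The TRIM28 controls had SOX4 at 184, IRX3 at 4.39, SOX9 at 1.27, IRX5 at 1.11 and IRX2 at 1.07 FPKM, with the last 3 overlapping neighbour by neighbour. The TRIM28 knockdown had SOX4 at 194, IRX3 at 6.45, SOX9 at 3.48, IRX5 at 1.45 and IRX2 at 1.34 FPKM, and here IRX5 and IRX2 alone overlapped. SOX2 came last in every group.

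**Figure D3:**
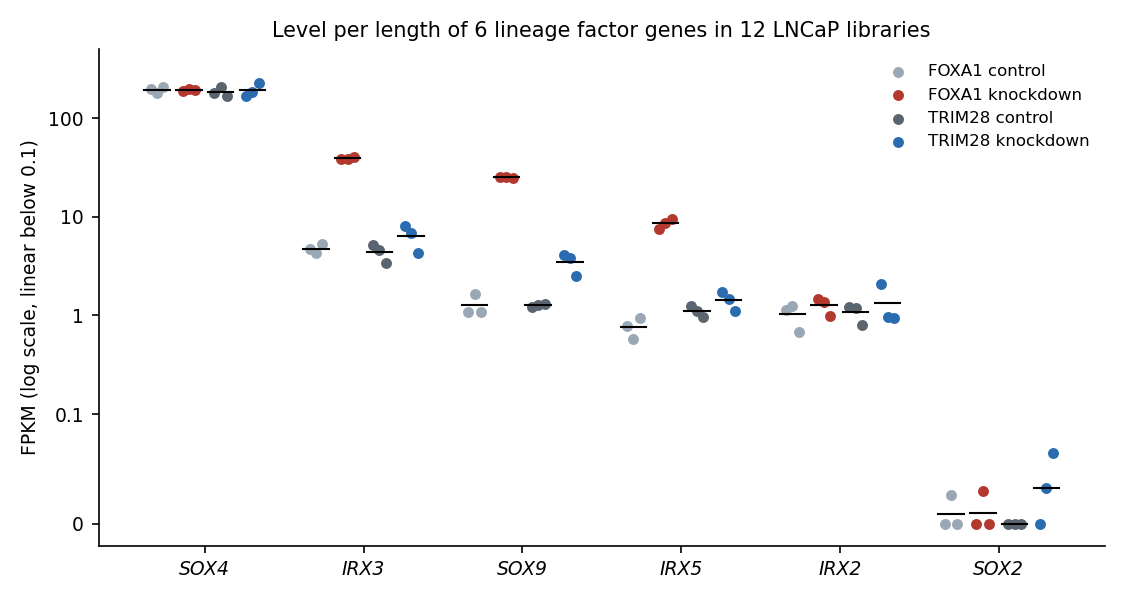
Deposited FPKM (vertical axis, log scale, linear below 0.1) of the 6 genes in each library, coloured by group, with a line at each group mean of 3 libraries. SOX4 stays near 184 to 195 FPKM in all groups, while IRX3, SOX9 and IRX5 reach 39.0, 25.1 and 8.63 FPKM in the FOXA1 knockdown.

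The balance among the listed members of each family followed from these levels. SOX9 made up 0.529% to 0.902% of the summed FPKM of SOX9, SOX4 and SOX2 in the FOXA1 controls and 11.3% to 11.8% in the FOXA1 knockdown. In the TRIM28 pair its share was 0.614% to 0.786% in the controls and 1.08% to 2.40% in the knockdown. SOX4 thus remained the main SOX transcript of the 3 in every library. IRX4, which is outside the listed members, is not counted in the IRX shares below. Among IRX3, IRX5 and IRX2, the share of IRX2 was 9.92% to 20.5% in the FOXA1 controls and 1.97% to 3.12% in the knockdown. IRX3 held 70.0% to 76.4% and then 79.2% to 80.8%. The ratio of IRX3 to IRX5 was 6.15, 7.35 and 5.60 in the FOXA1 controls and 5.04, 4.43 and 4.20 in the knockdown. It was 4.11, 4.17 and 3.53 in the TRIM28 controls, below all 3 of the FOXA1 controls.

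Transcripts that overlap or flank the members were read next. CRNDE is a long noncoding RNA whose start in the deposited annotation lies 1675 bp from that of IRX5 on the opposite strand. CRNDE rose from 26.4, 26.8 and 28.8 CPM to 49.6, 54.5 and 49.9 CPM in the FOXA1 knockdown (log2 0.91, SE 0.08, edgeR adjusted p = 6.16e-11). After TRIM28 knockdown its log2 fold change was -0.04 (SE 0.12, edgeR adjusted p = 0.829). AC018553.2, which overlaps IRX3 on the opposite strand and was singled out after its values were seen, held 12, 15 and 16 counts in the FOXA1 controls and 42, 57 and 24 in the knockdown (log2 1.49, SE 0.35, edgeR adjusted p = 6.19e-04). The strand setting of the counting is not given, so reads of IRX3 and AC018553.2 cannot be told apart. SOX9-AS1, opposite SOX9, held 0 to 2 counts, and AL512380.2, opposite SOX4, held 0.

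IRX2-DT, which starts 453 bp from IRX2 in the other direction, fell in the FOXA1 knockdown from 8.27, 6.01 and 5.79 CPM to 4.87, 4.27 and 4.27 CPM (log2 -0.58, SE 0.19, edgeR adjusted p = 0.0105). Without replicate 1 of its control the log2 fold change was -0.40 and the call was lost. CDKAL1, upstream of SOX4, fell (log2 -0.54, edgeR adjusted p = 2.05e-06). FTO and RPGRIP1L, on the other side of IRX3, were at -0.09 and -0.05 on the log2 scale and were not called. Of 11 listed neighbours, 6 were tested in the FOXA1 knockdown, 1 rose and 2 fell, with a median log2 fold change of -0.12. Those 3 of 6 called stand beside 52.4% of all genes. After TRIM28 knockdown 0 of 6 were called by edgeR's quasi-likelihood test or by DESeq2, and 2 had an unadjusted p under 0.05. Without replicate 3 CDKAL1, at a log2 fold change of -0.68, was the 1 of 6 called.

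For this and the following lists, the shares called among all genes were 26.1% higher and 26.3% lower in the FOXA1 knockdown and 13.3% each way in the TRIM28 knockdown (21.9% and 23.9% without replicate 3). The median log2 fold change over all genes was -0.017 in the FOXA1 knockdown. Among 16 other SOX genes, 5 were tested in the FOXA1 knockdown, and 3 rose and 0 fell, with a median log2 fold change of 0.44. SOX12, the close relative of SOX4, rose from 68.4, 66.4 and 56.2 CPM to 91.4, 101 and 103 CPM (log2 0.63, SE 0.07, edgeR adjusted p = 1.40e-08). SOX13 rose (log2 0.44, SE 0.09, edgeR adjusted p = 1.79e-04). SOX15 rose (log2 1.56, SE 0.47, edgeR adjusted p = 0.00622) from 12, 5 and 2 counts to 22, 16 and 20, and it was below the filter between the control groups. After TRIM28 knockdown 0 of 6 tested were called by edgeR's quasi-likelihood test or by DESeq2, and 0 had an unadjusted p under 0.05. Without replicate 3 SOX13, at a log2 fold change of -0.37, was the 1 of 6 called. The log2 difference between the knockdowns was called for SOX12 (0.78, SE 0.14, edgeR adjusted p = 0.00131) and SOX13 (0.73, SE 0.17, edgeR adjusted p = 0.00917).

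IRX4, the only other Iroquois gene of 3 listed that passed the filter, moved the other way from IRX3 and IRX5. It fell from 46.4, 40.2 and 37.3 CPM to 30.1, 28.2 and 30.1 CPM in the FOXA1 knockdown (log2 -0.49, SE 0.08, edgeR adjusted p = 1.71e-05). It fell from 39.6, 47.4 and 41.0 CPM to 26.8, 23.9 and 24.7 CPM in the TRIM28 knockdown (log2 -0.74, SE 0.11, edgeR adjusted p = 0.00146). Per length IRX4 lay above IRX3 outside the FOXA1 knockdown. It was at 15.8 FPKM in the FOXA1 controls, 16.6 in the TRIM28 controls and 10.5 in the TRIM28 knockdown. IRX3 was at 4.77, 4.39 and 6.45 FPKM there. In the FOXA1 knockdown IRX4 was at 11.4 and IRX3 at 39.0 FPKM. IRX4 lies near IRX2 on chromosome 5 and is known for its place in ventricular heart muscle and prostate epithelium.

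Regulators of plasticity and neuroendocrine fate split in both directions. Of 22 listed, 9 were tested in the FOXA1 knockdown, and 3 rose and 3 fell, with a median log2 fold change of 0.08, beside 26.1% of all genes higher and 26.3% lower. Only 8 of the 9 were also tested between the control groups, so the other may have passed the filter through the knockdown libraries alone. SNAI2, a repressor of epithelial genes, rose from 3.84, 5.74 and 4.01 CPM to 20.3, 18.1 and 18.7 CPM (log2 2.06, SE 0.15, edgeR adjusted p = 1.42e-12). REST, a silencer of neuronal genes, rose (log2 0.55, edgeR adjusted p = 2.71e-09). HES6, a bHLH factor of neuronal differentiation, fell (log2 -1.43, edgeR adjusted p = 8.95e-14), and EZH2, the catalytic subunit of PRC2, fell (log2 -0.44, edgeR adjusted p = 7.61e-07).

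The TRIM28 knockdown had 8 of the 22 tested, and 2 rose and 1 fell, or 2 and 2 without replicate 3. HES6 fell (log2 -1.38, SE 0.13, edgeR adjusted p = 2.12e-04) and REST rose (log2 0.58, SE 0.10, edgeR adjusted p = 0.00296). PROX1 rose from 0.767, 0.817 and 1.23 CPM to 2.71, 2.81 and 3.27 CPM (log2 1.67, SE 0.33, edgeR adjusted p = 0.00517). The log2 difference between the knockdowns was called for SNAI2 (1.89, SE 0.27, edgeR adjusted p = 2.01e-04).

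Progenitor and stem cell genes also moved both ways. Of 22 listed, 12 were tested in the FOXA1 knockdown, and 6 rose and 5 fell, with a median log2 fold change of 0.12, beside 26.1% and 26.3% of all genes. HES1, a Notch target, rose from 10.6, 11.2 and 9.64 CPM to 32.4, 32.1 and 35.3 CPM (log2 1.66, SE 0.10, edgeR adjusted p = 5.19e-14). POU5F1 rose (log2 1.53, SE 0.14, edgeR adjusted p = 3.08e-10). The human genome holds near-identical copies of POU5F1, so its count is uncertain. ALDH1A1, an aldehyde dehydrogenase used as a stem cell marker, fell (log2 -1.62, SE 0.07, edgeR adjusted p = 5.73e-17). KLF5, a factor of basal and luminal progenitors, stood at 28.6%, 40.2% and 37.3% of its control mean in the 3 knockdown libraries and fell (edgeR adjusted p = 1.35e-12).

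After TRIM28 knockdown 12 were tested, and 3 rose and 3 fell, also without replicate 3. ALDH1A1 fell (log2 -0.98, SE 0.21, edgeR adjusted p = 0.0116), as did KLF5 (log2 -0.80, SE 0.19, edgeR adjusted p = 0.0141). NOTCH1 rose (log2 0.62, SE 0.17, edgeR adjusted p = 0.0234), GATA2 fell (log2 -0.32, SE 0.10, edgeR adjusted p = 0.0439) and HES1 rose (log2 0.45, SE 0.15, edgeR adjusted p = 0.0497). The calls of KLF5, NOTCH1, GATA2 and HES1 were each lost without TRIM28 control replicate 1, without control replicate 2 and without knockdown replicate 2. Those of NOTCH1, GATA2 and HES1 were also lost without control replicate 3, and those of NOTCH1 and HES1 without knockdown replicate 1. HES1 further lost its call with no filter on low counts and with the replicate block, and GATA2 with library size alone as scaling.

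Basal epithelial keratins lie beside these results. The 4 basal markers summed to 1.54 to 2.80 CPM in the FOXA1 controls and 11.5 to 14.8 CPM in the FOXA1 knockdown, most of it KRT15 at 8.54 to 11.3 CPM and KRT14 at 2.50 to 3.42 CPM. TP63, the defining basal factor, was at 0 in 2 of the 3 knockdown libraries and at 0.0763 CPM in the other, and KRT5 was at 0.142 to 0.608 CPM. In the TRIM28 pair the sum was 0.817 to 2.01 CPM in the controls, 1.02 and 1.29 CPM in knockdown replicates 1 and 2, and 4.51 CPM in replicate 3. Their part in the levels of SOX9, IRX3 and IRX5 was not tested.

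Matrix genes that SOX9 drives in cartilage showed no common direction. Of 14 listed, 3 were tested in the FOXA1 knockdown, and 0 rose and 1 fell, with a median log2 fold change of 0.42. COL9A2 fell (log2 -0.85, SE 0.33, edgeR adjusted p = 0.0330). Its call depended on FOXA1 control replicate 1 and on knockdown replicates 1 and 2, and ended when any of these was left out. The call was also lost with no filter on low counts. DESeq2 called 0 of the 3. Of 4 tested in the TRIM28 knockdown, COL27A1 rose (log2 1.45, SE 0.43, edgeR adjusted p = 0.0306). Without replicate 3 its log2 fold change was 0.97 and 0 of 4 were called by edgeR, with 1 at an unadjusted p under 0.05. The call of COL27A1 was also lost without any 1 of the 3 control libraries and with the replicate block.

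TCF and Wnt feedback genes, a pathway that SOX9 and SOX4 are known to touch, had 12 of 16 members tested. In the FOXA1 knockdown 6 rose and 0 fell, with a median log2 fold change of 0.47. Those 6 of 12 called stand beside 52.4% of all genes, 26.1% of all genes being called higher, and DESeq2 called 5. CTNNB1, which encodes beta-catenin, rose (log2 0.39, SE 0.04, edgeR adjusted p = 1.67e-08), as did NKD1, a feedback inhibitor (log2 0.84, SE 0.13, edgeR adjusted p = 5.21e-06). TCF7 rose (log2 1.30, SE 0.38, edgeR adjusted p = 0.00593), and so did RNF43 (log2 0.76, SE 0.25, edgeR adjusted p = 0.0130). The call of RNF43 was lost without control replicate 3 or knockdown replicate 1, and that of AXIN2 (log2 0.55) without control replicate 2 or knockdown replicate 1. TCF7L2 (log2 0.28) was not called by DESeq2, in the joint fit of 12 libraries or with no filter on low counts, nor without control replicate 2, control replicate 3 or knockdown replicate 2. After TRIM28 knockdown 2 of 12 rose and 0 fell, NKD1 (log2 1.13, SE 0.17, edgeR adjusted p = 0.00140) and LRP6 (log2 0.39, SE 0.09, edgeR adjusted p = 0.0105). Omitting TRIM28 control replicate 1 ended the call of LRP6, and omitting knockdown replicate 3 brought the count to 3, with AXIN2.

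**Figure D4:**
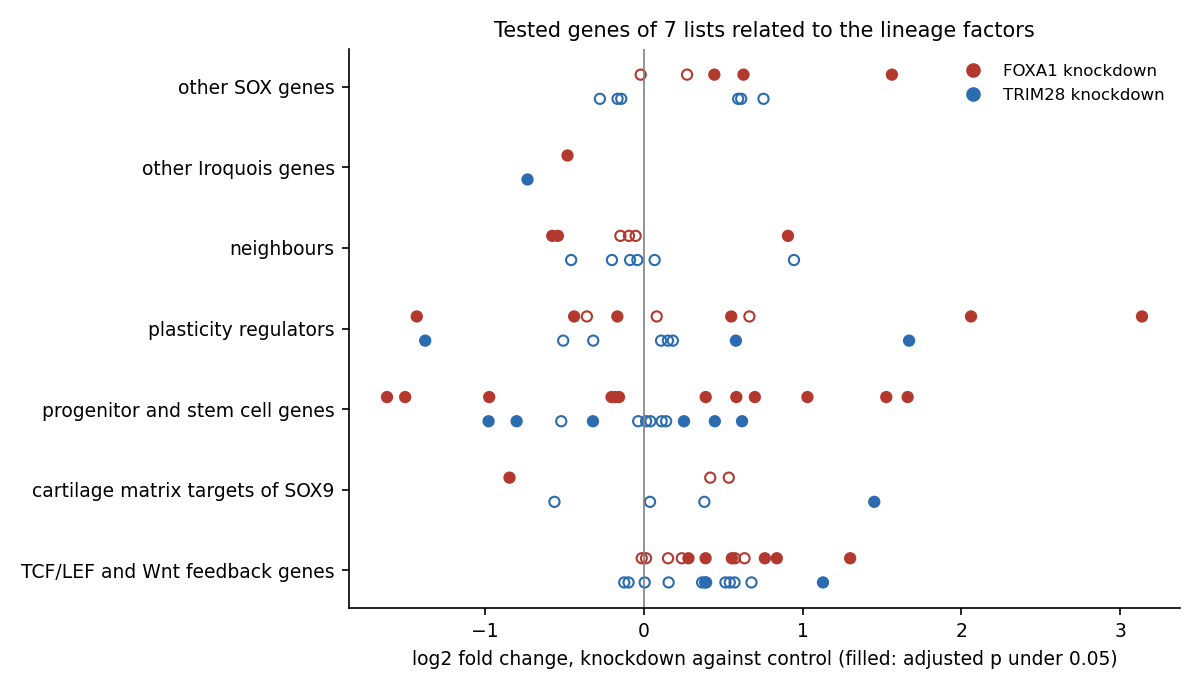
Log2 fold change (horizontal axis) of each tested gene of the 7 lists in the FOXA1 knockdown (red) and the TRIM28 knockdown (blue), filled where the adjusted p was under 0.05. Some of the tested SOX and plasticity genes were below the filter between the control groups. In the FOXA1 knockdown 6 Wnt genes were called higher and 0 lower and 3 other SOX genes higher and 0 lower, while the plasticity list had 3 each way, the progenitor list 6 higher and 5 lower, and IRX4, the single Iroquois gene tested, was lower in both knockdowns.

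The genes with the pattern most like each member were sought over the 12 libraries, by Pearson correlation of log2 CPM among 10794 genes of at least 5 CPM. For SOX9 these were OSBP (r = 0.993), CLU (0.992) and CDC42EP4 (0.992). Over the 9 libraries outside the FOXA1 knockdown r was 0.95, 0.95 and 0.93. CLU, a secreted chaperone, was at 46.3 CPM in the FOXA1 controls, 254 in the knockdown, 43.0 in the TRIM28 controls and 83.7 CPM in the TRIM28 knockdown. CDC42EP4 lies on chromosome 17, as SOX9 does.

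CAPN2, a calpain, was nearest to IRX3 (r = 0.991, and 0.78 over 9 libraries), ahead of NUDT11 and EEF2K (0.986 each, and 0.67 and 0.80 over 9). NUDT11 was nearest to IRX5 (r = 0.992, and 0.88 over 9), ahead of CAPN2 (0.985, and 0.74 over 9) and RCAN3 (0.982, and 0.81 over 9). CAPN2 was at 99.4 CPM in the FOXA1 controls and at 496 CPM in the FOXA1 knockdown (log2 2.32). It was picked for a pattern like that of IRX3 over these same libraries, so this rise carries no test. In the TRIM28 knockdown its log2 fold change was 0.28, with libraries at 136%, 126% and 94.9% of the control mean. For SOX4 the nearest were RSBN1 (r = 0.874), SMAP2 (0.868) and HK2 (0.868), with 0.89, 0.88 and 0.89 over 9 libraries. For IRX2 they were SCAMP4 (r = 0.884), ZNF219 (0.869) and ARMC5 (0.847), with 0.94, 0.88 and 0.86 over 9. These r values were below those of SOX9, IRX3 and IRX5 over 12 libraries, but over 9 libraries they were at or above most of those of IRX3 and IRX5. All points share a cell line and group structure, so the correlations are descriptions.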

How the data were processed

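The 6 genes and the 7 gene lists were chosen with earlier results of these data known, so no value of the members carries a p-value. Polyadenylated RNA was enriched from total RNA, per the labels' protocols. The deposited files hold raw counts by symbol in 1 table for each knockdown, and FPKM in a table of 12 libraries. Reads were placed on GRCh38 (hg38) per the submitters' processing notes, while no label or header names the aligner, counter, strand setting or annotation release. Each symbol was kept once (62710 lines, 453 symbols on more than 1 line). Deposited FPKM matched the count over a fixed gene length and the total of its library for 33045 of 33045 genes (relative tolerance 0.001). No value column lacked a sample.

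Counts were tested with edgeR 4.0.16 in R 4.3.3: robust quasi-likelihood F-tests (two-sided) after TMM scaling and the filterByExpr filter at 10 counts and 15 in all, Benjamini-Hochberg adjustment over all genes tested, threshold 0.05. Each knockdown was fitted with its own control in 6 libraries. The difference between the knockdowns was a contrast over 12 libraries. Standard errors come from the fits (log2 fold change over the root of F). Correlations used log2 CPM with a prior count of 2. The fits were tested on simulated data. DESeq2 1.42.0, other scalings, no filter, a replicate block and leaving out each library were alternatives. Named genes were the members, FOXA1 and TRIM28, up to 4 genes with the smallest p per list and knockdown, and 3 genes most like each member; AC018553.2 and marker genes are outside that rule. Groups came from titles and treatment labels, since some genotype labels name neighbouring gene numbers. Replicate numbers were not used to pair the samples outside the replicate block.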

Additional observations from a re-analysis of the deposited data

Results flagged for a closer look

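Several genes changed by different amounts in the FOXA1 and TRIM28 knockdowns, by the contrast over 12 libraries. Values are the log2 fold change in the FOXA1 knockdown minus that in the TRIM28 knockdown. Among the members it was 2.91 for SOX9, 2.55 for IRX3 and 3.18 for IRX5, a description since these were chosen for their response. Among related genes the difference was called by edgeR's quasi-likelihood test for SNAI2 (1.89), POU5F1 (1.40), HES1 (1.23), CRNDE (0.96), SOX12 (0.78), SOX13 (0.73) and GATA2 (0.72), all toward the FOXA1 knockdown. GATA2 rose in the FOXA1 knockdown (0.39) and fell in the TRIM28 knockdown (-0.32), the second call being lost without single control libraries. LRP6 lay the other way (-0.39).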

How the results depend on the processing

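All members kept their call under the alternatives run, except IRX3 in the TRIM28 knockdown. IRX3 passed the threshold there with no filter on low counts (0.49) and without replicate 3 of that knockdown (0.69). The members were chosen with these values known, so a kept call is a description and carries no test. SOX9 ranged from 4.17 to 4.51 on the log2 scale in the FOXA1 knockdown and from 1.24 to 1.56 in the TRIM28 knockdown, IRX3 from 2.95 to 3.10 and IRX5 from 3.31 to 3.65 in the FOXA1 knockdown. The sign of uncalled values was not kept. SOX4 ranged from -0.07 to 0.02 in the FOXA1 knockdown and from -0.15 to 0.11 in the TRIM28 knockdown, and IRX2 from -0.23 to 0.43 in the TRIM28 knockdown. For the difference SOX4 ranged from -0.11 to 0.14 and IRX2 from -0.13 to 0.54. Over the members and related genes, 1612 of 1681 values kept their call, 42 lost it and 27 gained it. Among the 1612, 69 uncalled values (27 of members) had the other sign, and 0 called values changed sign. Leaving out 1 library gave 7029 to 7568 called genes in the FOXA1 knockdown, 1877 to 6867 in the TRIM28 knockdown (1877 without control replicate 2, 2044 without control replicate 1, 2227 without control replicate 3, 2484 without knockdown replicate 2 and 6867 without knockdown replicate 3), and 1199 to 3583 for the difference (3583 without replicate 3 of the TRIM28 knockdown). The causes were not tested. Between controls it gave 0 to 1, and no filter gave 8. With library size alone as scaling, the share of calls that were higher moved from 49.9% to 63.1% in the TRIM28 knockdown and from 56.6% to 40.2% for the difference.

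Same-numbered libraries showed no clear shared deviation (correlations -0.02, 0.01 and 0.10 for FOXA1, 0.02, -0.08 and 0.00 for TRIM28, -0.09, -0.10 and -0.10 between controls). The main fits did not pair them, and these values cannot show whether they were prepared together. The replicate block gave 7997, 3846, 1579 and 0 called genes for the FOXA1 knockdown, the TRIM28 knockdown, the difference and the controls, against 7841, 3990, 1683 and 0 without it. Depth limits SOX2, with 0 to 2 counts per library, and genes such as IRX5 with 21 to 42 counts in control libraries.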
